A study of Mus musculus with 6 samples.

Results

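The genes described here were 10 members of the BCL2 family, the proteins that decide whether a cell survives or dies through its mitochondria. They were chosen as a named family, with earlier results of these data known, and were 10 of 46983 genes listed in the bulk RNA-seq table of the study. The table held 6 libraries of mouse splenic B cells, 3 labelled WT and 3 labelled *Hif1a* KO, cultured for 3 days under IgA class switching conditions, with LPS at 5 μg/ml and with TGF-β, IL-5 and BAFF each at 10 ng/ml. All mice were of the C57BL/6 strain. According to the methods, a floxed part of *Hif1a* was removed in *Hif1a* KO B cells by a cre recombinase driven by *Mb1* (*Cd79a*, a gene of the B-cell lineage), and the WT controls were littermates that carried either a single floxed allele with cre or a floxed pair without cre. Which of these controls gave which WT library, the age of the mice, and whether the 3 libraries of a group came from separate animals or cultures were not stated in the labels, so the p-values measure the spread between these libraries, which may be technical. The study asked which genes depend on HIF-1α, the oxygen-regulated transcription factor encoded by *Hif1a*, during IgA class switching, and the comparison below asks this of the survival and death genes.

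The BCL2 family works as a balance on the outer membrane of the mitochondrion. Survival proteins (BCL2, BCL-XL, MCL1 and A1) hold the effectors BAX and BAK in check, and BH3-only proteins (BIM, PUMA, NOXA and BID) bind the survival proteins or engage the effectors, so that the membrane is breached, cytochrome c leaves and caspases are switched on. B cells depend on this balance at each stage, and BAFF and activating signals keep them alive in part by raising survival proteins and restraining BIM.

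A few properties of the libraries bear on every value below. The total was 25.0 to 37.2 M reads per library, recovered from the FPKM values (fragments scaled to the length of the gene and to the depth of the library), and the lowest member count was 90 reads (*Bcl2a1b*) while the highest was 28564 (*Mcl1*). Whole-gene *Hif1a* FPKM did not mark the genotype (log2 fold change 0.14 ± 0.12 SE, limma adjusted p = 0.701), and it cannot check a deletion of part of the gene. The library of WT replicate 1 stood apart from the other two of its group: its Pearson correlation over genes was 0.983 with each of them and 0.991 to 0.994 with the *Hif1a* KO libraries, and on the first principal component (54.7% of the variance) it lay at 15.7, among *Hif1a* KO values of 7.10 to 19.5, while WT replicates 2 and 3 lay at -26.2 and -25.9. WT replicate 1 did not lie with *Hif1a* KO for every set of markers. Its dendritic cell markers summed to 16.8 FPKM, inside the WT range and above the *Hif1a* KO range of 12.04 to 12.95 FPKM. Its neutrophil markers summed to 37.5 FPKM, far above every other library. Its macrophage and erythroid sums lay inside the *Hif1a* KO ranges. Whether its label is right could not be checked from these values, and each WT mean and fold change over all 6 libraries takes the label as given. Results for the members are therefore given with and without it. WT replicate 1 was singled out on the same values that are tested. Leaving out the WT library that resembled *Hif1a* KO favours a difference between the groups. The adjusted p-values and calls without this library are therefore descriptive and are not independent evidence of a genotype effect. The B-cell markers summed to 3008 to 3868 FPKM in WT and 3006 to 4031 FPKM in *Hif1a* KO (7 of 7 markers with a mean above 1 FPKM), and the defining T-cell markers were near 0 (sum 0.995 to 1.68 FPKM over 6 genes).

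None of the 10 members passed the test between *Hif1a* KO and WT with all 6 libraries (limma on log2(FPKM + 1), two-sided, adjusted p under 0.05), against a background of 0% (0 of 13312 genes tested). By direction, 4 members were higher and 6 lower in *Hif1a* KO, with a median log2 fold change of -0.14 beside -0.03 over all genes tested. The effector *Bax* (-0.50) and the BH3-only gene *Bbc3* (-0.40) had the lowest fold changes, and *Mcl1* (0.20) and *Bcl2l11* (0.18) the highest. At an unadjusted p under 0.05 there were 3 members, *Bax* and *Bbc3* lower and *Bcl2l11* higher, against 6.98% of all genes tested (929 genes; 4.5% lower and 2.48% higher). No member had an unadjusted p under 0.05 when WT replicate 2, WT replicate 3, *Hif1a* KO replicate 2 or *Hif1a* KO replicate 3 was left out. Without WT replicate 1, 3 members were called, *Mcl1* higher and *Bax* and *Bbc3* lower, against 9.4% of genes (1251 of 13312; 3.64% higher and 5.75% lower), and the median over members was -0.25 beside -0.05 over all genes. With library weights in the fit, 4 members were called, against 10.9% of genes. These weights also came from the tested values and were lowest for WT replicate 1, so neither set of calls is independent evidence. In bulk RNA, fewer cells of a type and less RNA per cell cannot be told apart, and this holds for each value below.

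**Figure D1:**
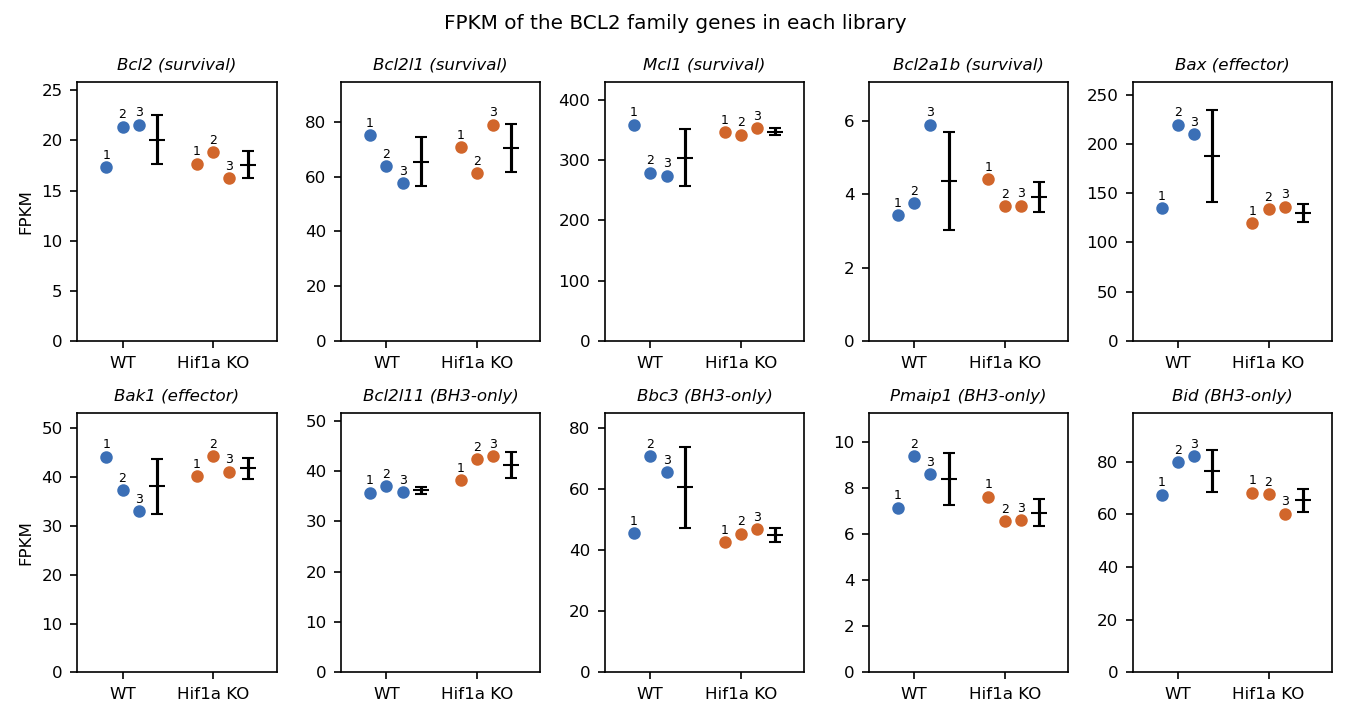
FPKM of each BCL2 family gene in each library (y axis, linear, from 0), with WT in blue and Hif1a KO in orange, replicate numbers above the points, and the group mean ± SD (n = 3) in black. WT replicate 1 sits at the level of the Hif1a KO libraries for Bax (134.6 FPKM) and Bbc3 (45.6 FPKM), and Bcl2l11 is the gene whose groups do not overlap.

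Levels between genes were compared on the FPKM scale, which is per length of gene. From the highest to the lowest mean over the 6 libraries, the order was *Mcl1*, *Bax*, *Bid*, *Bcl2l1*, *Bbc3*, *Bak1*, *Bcl2l11*, *Bcl2*, *Pmaip1* and *Bcl2a1b*. The neighbours *Bid* and *Bcl2l1* had overlapping ranges (60.3 to 82.0 FPKM and 57.6 to 79.0 FPKM), and *Bid* was the higher in 3 of 6 libraries. *Bcl2l1* was above *Bbc3*, and *Bak1* above *Bcl2l11*, in 4 of 6 libraries each, and their ranges also overlapped. *Bbc3* was above *Bak1* in 6 of 6 libraries although the ranges overlapped, and every other pair of neighbours had separate ranges. The order depends on the gene length that the authors divided by, which was, as recovered from the values, 2127 bases for *Bcl2l11* where the annotated exons cover 8029 bases (GENCODE vM21), and 817 bases for *Bcl2a1b* where they cover 817 bases.

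*Mcl1* (ENSMUSG00000038612, GRCm38 chr3:95658788-95663176, plus strand) encodes a short-lived survival protein that activated B cells and plasma cells need. In the WT libraries, in the order of their replicate numbers, it stood at 358.9, 279.2 and 274.3 FPKM, and in the *Hif1a* KO libraries at 346.3, 342.5 and 353.7 FPKM. The groups overlapped because WT replicate 1 was the highest of all 6 libraries, while the other two WT libraries were the lowest. The means were 304.2 ± 47.5 FPKM in WT and 347.5 ± 5.70 FPKM in *Hif1a* KO (SD, n = 3 each). The log2 fold change was 0.20 ± 0.11 (SE; 95% interval -0.06 to 0.46; adjusted p = 0.626). Without WT replicate 1, *Mcl1* was 0.33 ± 0.05 higher in *Hif1a* KO on the log2 scale (adjusted p = 0.0203, range over 17 alternatives 0.0203 to 1).

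*Bcl2* (ENSMUSG00000057329, GRCm38 chr1:106538178-106714274, minus strand) is the founding survival gene, and supports resting lymphocytes. Its FPKM was 17.3, 21.4 and 21.6 in the WT libraries and 17.7, 18.8 and 16.2 in the *Hif1a* KO libraries, in replicate order. WT replicate 1 lay within the *Hif1a* KO range and the other two WT libraries above it. It differed by -0.18 ± 0.11 on the log2 scale (adjusted p = 0.633), and by -0.28 ± 0.08 without WT replicate 1 (adjusted p = 0.0812). *Bcl2* and *Mcl1* thus had fold changes of opposite sign, and *Mcl1* was 20.7, 13.1 and 12.7 times *Bcl2* in the WT libraries and 19.6, 18.2 and 21.8 times in the *Hif1a* KO libraries.

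*Bcl2l1* (ENSMUSG00000007659, GRCm38 chr2:152780668-152831728, minus strand) encodes BCL-XL, a survival protein raised on B-cell activation. Its levels were 75.1, 63.8 and 57.6 FPKM in WT and 70.9, 61.3 and 79.0 FPKM in *Hif1a* KO. Both groups spread over a similar range and overlapped widely. The difference was 0.10 ± 0.13 on the log2 scale (95% interval -0.20 to 0.40, adjusted p = 0.776). It rested on single libraries of both groups, being 0.21 ± 0.11 without WT replicate 1 (adjusted p = 0.281, range over 17 alternatives 0.259 to 1) and 0.016 without WT replicate 3. Without *Hif1a* KO replicate 2 it was 0.20, and without *Hif1a* KO replicate 3 it was 0.018.

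*Bcl2a1b* (ENSMUSG00000089929, GRCm38 chr9:89199209-89207827, plus strand) is a mouse copy of the gene for A1, a survival protein induced by NF-κB. It was read at 3.42, 3.76 and 5.89 FPKM in WT and 4.40, 3.67 and 3.69 FPKM in *Hif1a* KO, on 90 to 125 reads per library. These values are uncertain, since 79.2% of the 50-base stretches of its exons also occur in other genes (*Bcl2a1a*, *Bcl2a1c*, *Bcl2a1d* and *Gm29094*) and 49.1% of its exon bases overlap *Gm29094* on the same strand. Its copy *Bcl2a1d* was read at 113.8, 121.8 and 114.4 FPKM in WT and 110.8, 126.1 and 121.0 FPKM in *Hif1a* KO. The log2 fold change of *Bcl2a1b* was -0.10 ± 0.18 (adjusted p = 0.851), was -0.22 without WT replicate 1 and 0.10 without WT replicate 3, and was 0.02 for the summed FPKM of *Bcl2a1a*, *Bcl2a1b* and *Bcl2a1d*, an alternative chosen after seeing the data. The sum of these copies was 118.2 to 128.8 FPKM in WT and 116.9 to 131.6 FPKM in *Hif1a* KO, and the ranges overlapped.

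*Mcl1* made up 75.8% to 78.9% of the summed FPKM of the 4 survival members in WT and 78.1% to 80.3% in *Hif1a* KO. In this sum A1 is represented by *Bcl2a1b* alone. The summed copies *Bcl2a1a*, *Bcl2a1b* and *Bcl2a1d* stood at 116.9 to 131.6 FPKM over the 6 libraries, and counting them all would lower the share of *Mcl1*. The survival sum was 454.8, 368.2 and 359.3 FPKM in WT and 439.3, 426.4 and 452.7 FPKM in *Hif1a* KO. WT replicate 1 was again the highest and the other two WT libraries the lowest.

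*Bax* (ENSMUSG00000003873, GRCm38 chr7:45461697-45466898, minus strand) encodes the effector that moves to mitochondria and forms pores, and is a known p53 target. WT libraries held 134.6, 219.5 and 209.7 FPKM of it, and *Hif1a* KO libraries 119.8, 133.8 and 136.5 FPKM. WT replicates 2 and 3 lay above every *Hif1a* KO library, and WT replicate 1 lay below *Hif1a* KO replicate 3, so the groups overlapped. The means were 187.9 ± 46.4 FPKM in WT and 130.0 ± 8.97 FPKM in *Hif1a* KO (SD, n = 3 each). The log2 fold change was -0.50 ± 0.18 (95% interval -0.93 to -0.06; adjusted p = 0.626). When WT replicate 1 was left out, *Bax* was lower in *Hif1a* KO by a log2 fold change of -0.72 ± 0.07 (adjusted p = 0.00653, range over 17 alternatives 0.00653 to 1). *Gm45808* overlaps 12.2% of the exon bases of *Bax* on the same strand, and reads there cannot be assigned with certainty.

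*Bak1* (ENSMUSG00000057789, GRCm38 chr17:27019810-27029009, minus strand) encodes BAK, the effector that resides on mitochondria. It was at 44.1, 37.3 and 33.0 FPKM in WT and 40.1, 44.3 and 41.1 FPKM in *Hif1a* KO, with *Hif1a* KO replicate 2 and WT replicate 1 the highest and WT replicates 2 and 3 the lowest. The log2 fold change was 0.14 ± 0.11 (adjusted p = 0.678), and was 0.25 ± 0.08 without WT replicate 1 (adjusted p = 0.102, range over 17 alternatives 0.102 to 1) and 0.042 without WT replicate 3. *Ggnbp1* overlaps 25.5% of its exon bases on the other strand. The ratio of *Bax* to *Bak1* FPKM was 3.05, 5.89 and 6.36 in the WT libraries and 2.99, 3.02 and 3.32 in the *Hif1a* KO libraries. WT replicate 1 lay inside the *Hif1a* KO range of this ratio and the other two WT libraries above it.

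Among the BH3-only genes, *Bcl2l11* (ENSMUSG00000027381, GRCm38 chr2:128126038-128162547, plus strand) encodes BIM, which removes unwanted B cells and is restrained by survival signals. Its FPKM was 35.7, 37.0 and 35.9 in WT and 38.1, 42.4 and 43.0 in *Hif1a* KO. All *Hif1a* KO libraries were above all WT libraries, WT replicate 1 included, which held for 1 of 10 members and for 10.1% of all genes tested (4.06% with *Hif1a* KO above and 6.03% with *Hif1a* KO below), a share of members near the background. The means were 36.2 ± 0.727 FPKM in WT and 41.2 ± 2.62 FPKM in *Hif1a* KO (SD, n = 3 each). This was a log2 fold change of 0.18 ± 0.07 (95% interval 0.02 to 0.34; adjusted p = 0.626). It was 0.15 to 0.23 over the 17 alternatives, and *Bcl2l11* was called under none of them (adjusted p 0.126 to 1).

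*Bbc3* (ENSMUSG00000002083, GRCm38 chr7:16308393-16318205, plus strand) encodes PUMA, a p53-induced protein that binds every survival member. The WT libraries held 45.6, 70.7 and 65.5 FPKM of it, and the *Hif1a* KO libraries 42.6, 45.4 and 46.9 FPKM. As with *Bax*, WT replicates 2 and 3 lay above every *Hif1a* KO library and WT replicate 1 lay among them. The means were 60.6 ± 13.3 FPKM in WT and 45.0 ± 2.17 FPKM in *Hif1a* KO (SD, n = 3 each). *Bbc3* had a log2 fold change of -0.40 ± 0.16 (95% interval -0.77 to -0.02; adjusted p = 0.626). Leaving out WT replicate 1 gave -0.59 ± 0.07 (adjusted p = 0.00904, range over 17 alternatives 0.00904 to 1). *Bbc3* was 1.28, 1.91 and 1.83 times *Bcl2l11* in WT and 1.12, 1.07 and 1.09 times in *Hif1a* KO, so for this ratio all 3 WT libraries lay above all 3 *Hif1a* KO libraries. The groups of *Bcl2l11* alone were already separate, and how often such ratios separate the groups was not worked out.

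*Pmaip1* (ENSMUSG00000024521, GRCm38 chr18:66458533-66465565, plus strand) encodes NOXA, a BH3-only protein that neutralizes MCL1. It was at 7.17, 9.40 and 8.63 FPKM in WT and 7.64, 6.58 and 6.63 FPKM in *Hif1a* KO. WT replicate 1 lay below *Hif1a* KO replicate 1, and the groups overlapped there. *Pmaip1* differed by -0.24 ± 0.11 on the log2 scale (adjusted p = 0.626), and by -0.33 ± 0.09 without WT replicate 1 (adjusted p = 0.0779).

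*Bid* (ENSMUSG00000004446, GRCm38 chr6:120891930-120916853, minus strand) encodes the BH3-only protein that caspase-8 cleaves, linking death receptors to mitochondria. Its levels were 67.4, 79.8 and 82.0 FPKM in WT and 68.2, 67.6 and 60.3 FPKM in *Hif1a* KO. Here too WT replicate 1 fell inside the *Hif1a* KO range, with the other two WT libraries above it. The log2 fold change was -0.22 ± 0.09 (95% interval -0.44 to 0.0033; adjusted p = 0.626), and -0.31 ± 0.07 without WT replicate 1 (adjusted p = 0.0526). *Bcl2l13* overlaps 17.7% of the exon bases of *Bid* on the other strand.

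Summed by role, the effectors reached 178.8, 256.8 and 242.6 FPKM in WT and 159.9, 178.0 and 177.6 FPKM in *Hif1a* KO, and the BH3-only genes 155.9, 197.0 and 192.0 FPKM in WT and 156.6, 162.0 and 156.8 FPKM in *Hif1a* KO. Over these members, WT replicates 2 and 3 had the highest sums of effectors and of BH3-only genes and the lowest sums of survival genes. The sum left out the BH3-only gene *Bmf*, at 145.8, 100.3 and 96.8 FPKM in WT and 137.3, 133.7 and 174.4 FPKM in *Hif1a* KO. *Bmf* was lowest in WT replicates 2 and 3, so the order of the BH3-only sums holds for the listed members and not for all BH3-only genes. The ratio of *Bax* to *Mcl1* was 0.375, 0.786 and 0.764 in WT and 0.346, 0.391 and 0.386 in *Hif1a* KO.

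**Figure D2:**
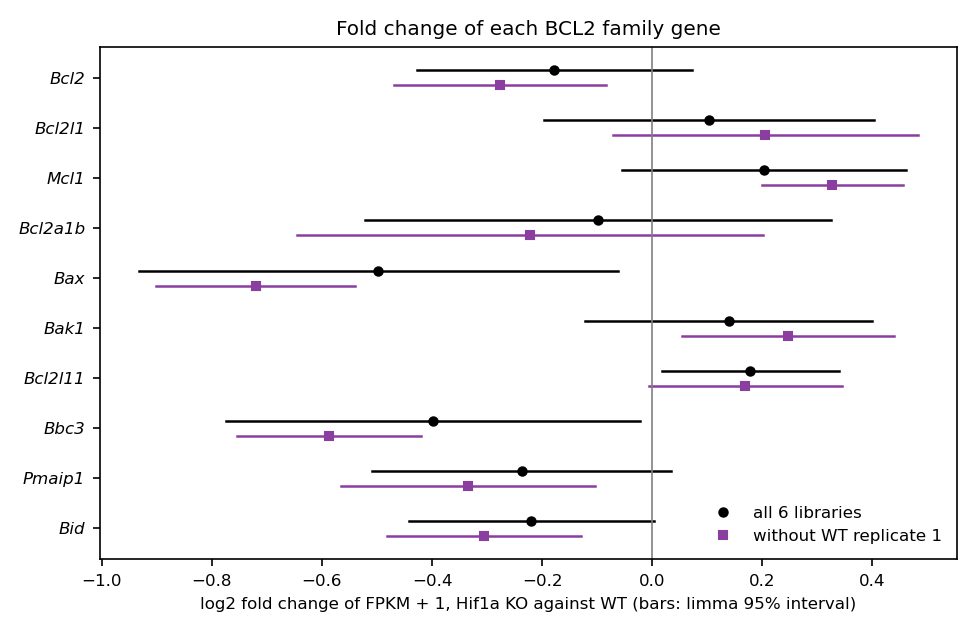
Log2 fold change of FPKM + 1 in Hif1a KO against WT for each BCL2 family gene (x axis), with all 6 libraries (black circles) and without WT replicate 1 (purple squares); bars are limma 95% intervals. Bax moves from -0.50 to -0.72, Bbc3 from -0.40 to -0.59 and Mcl1 from 0.20 to 0.33 when WT replicate 1 is left out, while Bcl2l11 stays at 0.18 and 0.17.

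The sequences before the starts of the genes were read for motifs of HIF-1, of E-box factors and of p53, since *Bax* and *Bbc3* are known p53 targets and HIF-1 is the factor removed. RefSeq promoters (GRCm38.p6, 250 bases before to 50 bases after each start) matched 9 of 10 members in 14 windows, and *Pmaip1* was not matched. ACGTG, the core that HIF-1 binds most often, was searched on both strands and occurred in 2 of the 14 windows, from *Bax* and *Bbc3*, and in 19.6% of 32851 RefSeq promoters. Each of these matches lay inside the palindrome CACGTG, the E-box core, which holds ACGTG on both strands and occurred in 7.15% of promoters. The p53 half-site occurred in 1 of the 14 windows (*Bax*) and in 8.36% of promoters, and a p53 full site, made of half-sites up to 13 bases apart, in 0 of them and 0.0731% of promoters. The motifs were not limited to the members. Among other BCL2 family genes, *Bmf* held a p53 half-site in 1 window and ACGTG in another, and *Bnip3* held CACGTG. The *Bax* stretch ends at the base before its start and is shown for its matches, and the *Bcl2l11* stretch is shown as that of the member whose groups did not overlap, with no match. The choice of these genes was made after their values were seen. Capitals mark the p53 half-site (bases -201 to -192 from the start) and CACGTG (bases -9 to -4) in *Bax*:
Bax, chr7:45466899-45467148, minus strand: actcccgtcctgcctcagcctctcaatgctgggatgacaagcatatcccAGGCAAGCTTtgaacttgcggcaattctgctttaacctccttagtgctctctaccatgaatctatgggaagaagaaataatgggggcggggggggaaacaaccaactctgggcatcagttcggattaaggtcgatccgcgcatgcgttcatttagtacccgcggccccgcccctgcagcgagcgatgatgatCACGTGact
Bcl2l11, chr2:128125788-128126037, plus strand: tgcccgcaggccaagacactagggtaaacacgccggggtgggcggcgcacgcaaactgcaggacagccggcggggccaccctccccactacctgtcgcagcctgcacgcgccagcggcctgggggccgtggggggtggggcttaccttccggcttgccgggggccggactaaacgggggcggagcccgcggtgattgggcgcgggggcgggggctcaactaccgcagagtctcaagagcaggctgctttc

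*Bax* held a further CACGTG after its start (bases 36 to 41), and *Bbc3* held one in the RefSeq window chr7:16310181-16310480, inside the gene. These are printed as 30-base stretches with CACGTG in capitals, so that the flanks can be compared:
Bax, chr7:45466849-45466878, minus strand: atgttgcggggcaccCACGTGagggccgca
Bbc3, chr7:16310355-16310384, plus strand: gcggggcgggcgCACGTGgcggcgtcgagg

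The matches describe letters in these windows and not binding. Sequence further than 250 bases before or 50 bases after each start was not searched. The lack of a p53 full site in these windows therefore does not show that a gene lacks one.

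Of the 16 other BCL2 family genes listed, 10 were tested, 0 were called with all 6 libraries (0 at an unadjusted p under 0.05), 4 were higher and 6 lower in *Hif1a* KO, and the median log2 fold change was -0.05. *Bmf*, a BH3-only gene, was the highest expressed of these, at 145.8, 100.3 and 96.8 FPKM in WT and 137.3, 133.7 and 174.4 FPKM in *Hif1a* KO, a difference of 0.39 ± 0.18 on the log2 scale (adjusted p = 0.626). WT replicate 1 lay inside the *Hif1a* KO range and the other two WT libraries below it. Without WT replicate 1, *Bmf* was the 1 gene of this list that was called (0.58 ± 0.12; adjusted p = 0.0407, range over 17 alternatives 0.0377 to 1), against 9.4% of all genes tested. *Bnip3*, a mitophagy gene and known HIF-1 target, was at 12.3, 15.1 and 15.1 FPKM in WT and 11.8, 10.5 and 13.5 FPKM in *Hif1a* KO (log2 fold change -0.23 ± 0.12, adjusted p = 0.626), and its relative *Bnip3l* had a log2 fold change of 0.07 (0.15 without WT replicate 1). *Bcl2l12* was lower in every *Hif1a* KO library than in every WT library (7.90 to 8.31 FPKM against 8.71 to 9.84 FPKM; log2 fold change -0.17, adjusted p = 0.626), and 33.4% of its exon bases are overlapped by *Irf3* and *Gm15545* on the other strand. Such a separation below WT held for 1 of the 10 tested genes of this list and for 6.03% of all genes tested. *Bad*, a BH3-only gene controlled by phosphorylation, had a log2 fold change of 0.18, the survival gene *Bcl2l2* -0.08 (-0.13 without WT replicate 1), *Bcl2l15* -0.15, *Bcl2a1a* -0.16 (-0.45 without WT replicate 1 and 0.07 without WT replicate 2), *Bcl2l13* -0.02 and *Bcl2a1d* 0.03. The last pair changed sign with the processing (*Bcl2l13* to 0.01 under median-ratio scaling, *Bcl2a1d* to -0.01 without *Hif1a* KO replicate 2). *Bcl2l10*, *Bcl2a1c*, *Bok*, *Bik*, *Hrk* and *Bcl2l14* had a mean FPKM under 0.5 and were not tested.

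**Figure D3:**
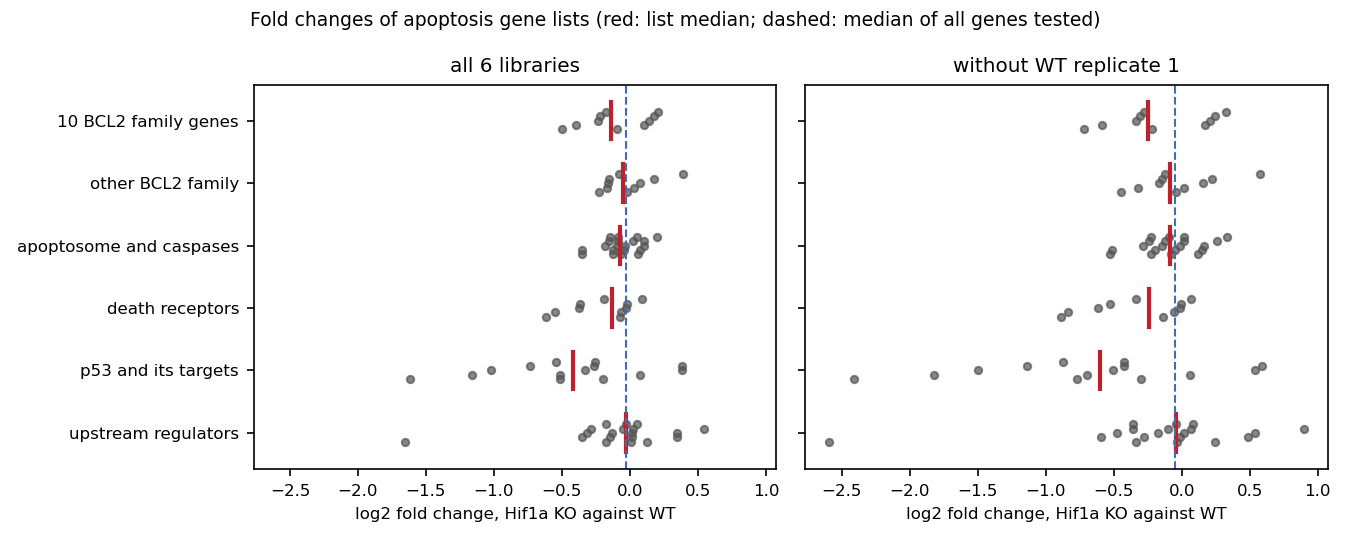
Log2 fold change in Hif1a KO against WT (x axis) of each tested gene (grey points) in the 10 BCL2 family genes and in 5 lists of genes around them, with all 6 libraries (left) and without WT replicate 1 (right); red bars are list medians and the dashed line is the median of all genes tested. The p53 list has the lowest median, -0.42 with all libraries and -0.60 without WT replicate 1. The lists were chosen with earlier results of these data known.

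Downstream of the family, 20 genes of the apoptosome, the caspases and the mitochondrial pore were listed and tested, of which 0 were called, 7 were higher and 13 lower, with a median log2 fold change of -0.08. The highest expressed was *Vdac2*, a channel of the outer membrane that holds BAK (log2 fold change -0.09). *Vdac1* was 141.4, 159.2 and 160.4 FPKM in WT and 135.9, 136.5 and 132.9 FPKM in *Hif1a* KO, with all *Hif1a* KO libraries below all WT libraries and a log2 fold change of -0.18 ± 0.07. *Casp2*, a caspase active upstream of mitochondria, had all *Hif1a* KO libraries above all WT libraries (log2 fold change 0.20 ± 0.08). Of the 20 genes, 1 had all *Hif1a* KO libraries above and 2 had all below, against 4.06% and 6.03% of all genes tested. *Vdac3* (-0.35) and the protease gene *Htra2* (-0.15) were lower in mean, and their groups overlapped. The adjusted p of these genes lay between 0.626 and 0.693. The genes called without WT replicate 1 were 3, all lower, *Vdac1* (-0.24) and *Vdac3* (-0.52) among them, against 9.4% of all genes tested (5.75% lower), and *Vdac2* was -0.15 and *Htra2* -0.22 in that fit.

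Of 12 death receptor pathway genes, 10 were tested and 0 called, with 1 higher and 9 lower and a median of -0.13. *Casp8*, the initiator caspase that cleaves BID, was the highest expressed (log2 fold change -0.07). *Cflar*, which encodes the caspase-8 inhibitor FLIP, was at 63.7, 107.7 and 106.8 FPKM in WT and 71.8, 72.9 and 64.1 FPKM in *Hif1a* KO (log2 fold change -0.37 ± 0.20), with WT replicate 1 the lowest of all libraries. *Mlkl*, the executioner of necroptosis, had a log2 fold change of -0.55, the death receptor genes *Tnfrsf21* and *Tnfrsf10b* -0.62 and -0.37, and *Fas* -0.19. Called without WT replicate 1 were 4 genes, all lower, namely *Cflar* (-0.62), *Mlkl* (-0.83), *Tnfrsf21* (-0.89) and *Tnfrsf10b* (-0.53), against 9.4% of all genes tested (5.75% lower), and *Fas* was -0.34 and *Casp8* -0.14 in that fit. *Fasl* and *Tnfrsf1a* had a mean FPKM under 0.5.

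Upstream, *Trp53* and p53 targets outside the family had the lowest median of the lists, -0.42 over the 14 tested of 16, with 3 higher, 11 lower and 0 called. All lists were chosen with earlier results of these data known, so their order by median is descriptive. At an unadjusted p under 0.05 there were 5, of which 4 were lower, against 6.98% of all genes tested (4.5% lower and 2.48% higher). *Cdkn1a*, the cell cycle inhibitor p21, was at 21.6, 122.5 and 109.6 FPKM in WT and 26.7, 20.4 and 16.9 FPKM in *Hif1a* KO, with WT replicate 1 among the *Hif1a* KO libraries and a difference of -1.62 ± 0.62 on the log2 scale (adjusted p = 0.626). *Sesn2*, a stress gene induced by p53 and by the amino acid response, was at 10.96, 32.51 and 30.01 FPKM in WT and 10.42, 10.55 and 10.22 FPKM in *Hif1a* KO, and all WT libraries lay above all *Hif1a* KO libraries, with WT replicate 1 next to them (log2 fold change -1.02 ± 0.37). *Ddit4*, an mTORC1 inhibitor induced by p53 and by HIF-1, had all *Hif1a* KO libraries below all WT libraries (log2 fold change -0.52 ± 0.15, adjusted p = 0.626). Such a separation below WT held for 2 of the 14 tested genes and for 6.03% of all genes tested. *Aen* (-0.51) was lower and *Sesn1* (0.38) higher in mean, and the highest expressed gene, *Mdm4*, had a log2 fold change of -0.26. Without WT replicate 1, 10 of the 14 genes were called, 1 higher (*Sesn1*) and 9 lower, against 9.4% of all genes tested (3.64% higher and 5.75% lower), with *Cdkn1a* at -2.41, *Aen* at -0.77 and *Mdm4*, which was not called, at -0.42. The pattern of *Bax* and *Bbc3* over the libraries, high in WT replicates 2 and 3 and low in the other 4, was also that of *Cdkn1a*, *Sesn2* and *Aen*. It was shared by genes of the other lists, such as *Vdac3* and *Trib3*. The first principal component over all genes tested (54.7% of the variance) parted the libraries in the same way. Within the p53 list, 3 of the 14 tested genes were higher in *Hif1a* KO, and *Sesn1* among them ran the other way over the libraries. The part of p53 in the pattern was not tested.

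**Figure D4:**
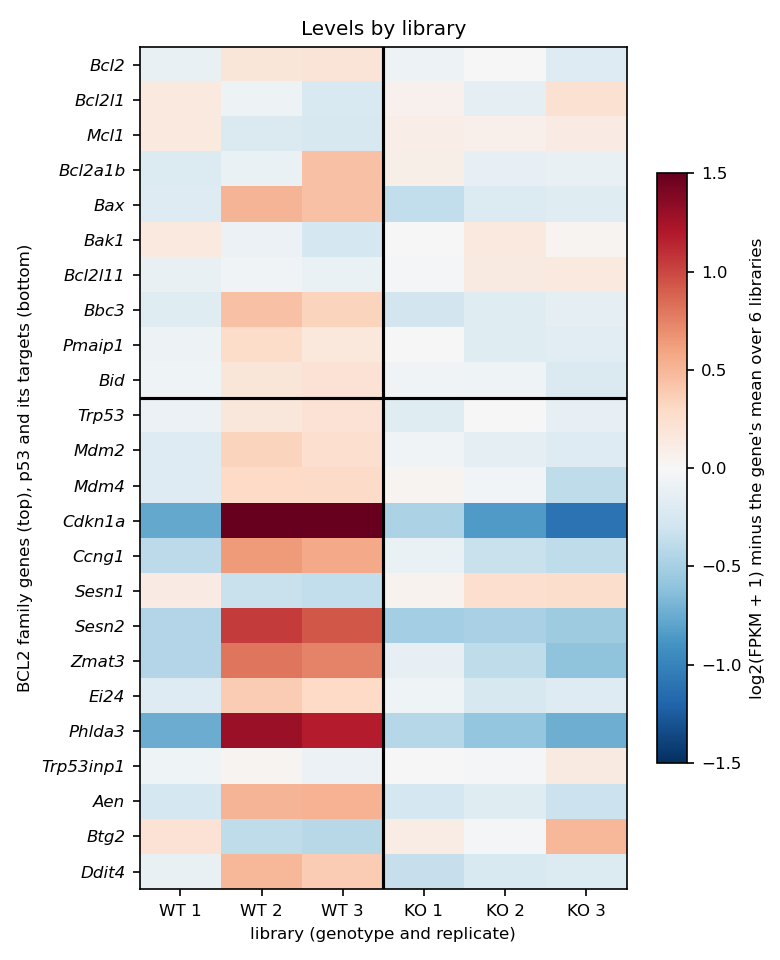
Log2(FPKM + 1) of each gene in each library (columns) minus the gene's mean over the 6 libraries, for the 10 BCL2 family genes (top) and p53 with its tested targets (bottom); the colour scale ends at -1.5 and 1.5, and values past it take the end colour. WT 2 and WT 3 are red for Bax, Bbc3 and most p53 targets, and WT 1 is coloured like the 3 Hif1a KO libraries in those rows.

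Of 19 regulators of the family, 19 were tested and 0 called, with 9 higher and 10 lower and a median of -0.03. *Tnfrsf13b*, the BAFF and APRIL receptor TACI, was the highest expressed at 1047 to 1063 FPKM in WT and 1019 to 1118 FPKM in *Hif1a* KO, with a log2 fold change of 0.01 that was -0.02 under quantile normalization and without *Hif1a* KO replicate 3. *Foxo1*, which encodes a transcription factor of resting B cells, was at 31.5, 23.4 and 23.0 FPKM in WT and 33.8, 30.7 and 34.7 FPKM in *Hif1a* KO (log2 fold change 0.35 ± 0.13, adjusted p = 0.626), and its relative *Foxo3*, which can activate *Bcl2l11* and *Bbc3*, had all *Hif1a* KO libraries below all WT libraries (-0.14 ± 0.07). Such a separation below WT held for 1 of the 19 regulators and for 6.03% of all genes tested. *Trib3*, a gene of the integrated stress response, was at 1.96, 20.5 and 18.9 FPKM in WT and 2.497, 2.288 and 2.505 FPKM in *Hif1a* KO, with WT replicate 1 the lowest of the 6 (log2 fold change -1.66 ± 0.72). *Ddit3*, which encodes CHOP, had a log2 fold change of -0.28, and *Traf3*, which restrains the BAFF pathway, of -0.32. Without WT replicate 1, 6 regulators were called, 3 higher and 3 lower, against 9.4% of all genes tested (3.64% higher and 5.75% lower), with *Foxo1* (0.49) among the higher and *Trib3* (-2.59) and *Traf3* (-0.47) among the lower.

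Markers of other cell types also differed between these libraries. The 12 macrophage markers, led by *Adgre1*, summed to 74.5, 189.0 and 126.5 FPKM in WT and 75.0, 80.1 and 68.1 FPKM in *Hif1a* KO, with 10 of 12 lower in *Hif1a* KO by mean and 0 of 12 at 0 in every library. The 6 erythroid markers, led by *Hbb-bs*, summed to 3.05, 16.2 and 13.5 FPKM in WT and 2.91, 4.72 and 2.96 FPKM in *Hif1a* KO, with 6 of 6 lower. The 6 plasma cell genes, led by *Xbp1*, ran the other way, at 715.4, 429.4 and 398.8 FPKM in WT and 681.2, 505.2 and 905.9 FPKM in *Hif1a* KO, with 1 of 6 lower and 0 at 0. The 8 neutrophil markers, led by *S100a9*, summed to 37.5 FPKM in WT replicate 1 and to at most 0.606 FPKM elsewhere, and the 6 dendritic cell markers, led by *Flt3*, to 16.2 to 17.9 FPKM in WT and 12.04 to 12.95 FPKM in *Hif1a* KO. The 4 NK cell markers, led by *Prf1*, summed to 0.954 to 2.01 FPKM in WT and 1.30 to 2.22 FPKM in *Hif1a* KO. The part of these cells in the values of *Bax*, *Bbc3* and *Mcl1* was not tested.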

How the data were processed

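Bulk RNA-seq of 6 libraries (3 WT, 3 *Hif1a* KO) was used, with groups and replicate numbers taken from the sample labels. The labels name LPS as the activating stimulus, where the methods allow either LPS or a combination of anti-CD40 and anti-IgM on follicular B cells. The authors aligned paired-end reads to mm10 with TopHat 2.0.12, counted them per gene with HTSeq 0.6.1, divided by gene length and deposited FPKM values. The annotation release, the strand option and the treatment of reads with several alignments were not given in the sources used here, so overlapping genes and gene copies are uncertain. Depth was recovered from the steps of the FPKM values, and at 25.0 M reads 1 read on 1 kb is worth 0.040 FPKM.

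The 10 members and all gene lists were chosen with earlier results of these data known. Log2(FPKM + 1) of the 13312 genes whose FPKM averaged 0.5 or more was fitted with limma 3.58.1 (R 4.3.3, lmFit and eBayes with a trend, no covariates, two-sided), and a gene was called where its p, adjusted by Benjamini-Hochberg over all genes tested, was under 0.05. Fold changes are on the log2(FPKM + 1) scale, which understates those of low genes, and ± gives the standard error unless SD is stated. Named genes were all 10 members, the tested genes of the wider family, up to 5 genes of each other list with the smallest unadjusted p, the highest expressed gene of each list and *Hif1a*. Not every single-gene value is given. The method was tested on simulated data with the spread of these libraries, in which 200 of 13312 genes were changed. At a log2 change of 0.5, 26% of the changed genes were called, and 7.14% of the calls were false. At a log2 change of 1 these shares were 77.5% and 4.32%. *Bax*, the member with the largest fold change, stood at -0.50 with all 6 libraries. The absence of calls among the members therefore does not show an absence of change. Coordinates, exon overlaps and shared 50-base stretches came from GENCODE vM21.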

Additional observations from a re-analysis of the deposited data

How the results depend on the processing

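The number of genes called was 0 with all 6 libraries and 0 to 1251 when 1 library was left out (1251 without WT replicate 1, 1 without *Hif1a* KO replicate 1), and 1449 with library weights from limma's arrayWeights, which gave WT replicate 1 a weight of 0.238 and the others 0.664 to 2.42. For the 10 BCL2 family genes these counts were 0, 0 to 3 and 4 (*Mcl1*, *Bax*, *Bbc3* and *Bid*), and for the 73 tested genes of the other lists 0, 0 to 24 and 27. With voom on the recovered reads, other eBayes options, a pseudocount of 0.1, other filters, immunoglobulin genes removed, or the libraries rescaled by median ratio or quantiles, 0 members were called. The median log2 fold change of the members was -0.25 to -0.05 when 1 library was left out. Of single genes, *Bcl2a1b* (-0.22 to 0.098 when 1 library was left out) reversed to 0.098 without WT replicate 3 and to 0.019 with summed copies, *Bcl2a1a* (-0.45 to 0.068) without WT replicate 2, *Tnfrsf13b* (-0.019 to 0.047) to -0.021 with quantile normalization and to -0.019 without *Hif1a* KO replicate 3, *Bcl2a1d* (-0.010 to 0.083) to -0.010 without *Hif1a* KO replicate 2 and to -0.0018 with library weights, and *Bcl2l13* (-0.044 to 0.0021) to 0.0090 with median-ratio scaling, to 0.0017 with quantile normalization and to 0.0021 without *Hif1a* KO replicate 2. The cause was not tested. Same-numbered libraries deviated together with correlations of -0.099, 0.139 and -0.276, which gave no sign of pairing by number. These are deviations from means of 3 libraries, and WT replicate 1 lay far from its group. They cannot decide whether libraries of the same number shared a culture. With the replicate number as a block 0 genes and 0 members were called (694 genes at an unadjusted p under 0.05, against 929 without the block). Depth limits *Bcl2a1b*, on 90 to 125 reads, more than the other members, which had at least 506 reads.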
